A study of Arabidopsis thaliana with 9 samples.

Results

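The comparison described here sets the knock-out lines clpp2-1 and clpp2-2 of Arabidopsis thaliana, pooled with equal weight, against the wild type Col-0. All 9 libraries of the series enter it: 3 of each line and 3 of the wild type (wt). Whole seedlings of all 3 groups were 2 weeks old and came from sterile liquid culture on a shaker, under 16 h of light at 22 °C (150 µmol m-2 s-1) and 8 h of dark at 18 °C. Both lines are in the Col-0 background and each is 1 allele, labelled as a knock-out of CLPP2 (AT5G23140). Of the 22254 genes in the deposited data, 20294 had enough counts to be tested. The genes of interest are those in which all 6 mutant libraries lay beyond all 3 wild-type libraries, which held for 934 of the 20294, and within these the 126 genes that also passed the test of the mean change.

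In the matrix of plant mitochondria CLPP2 forms the cutting core of the ClpXP protease, a barrel that degrades proteins that a ring of CLPX chaperones unfolds and feeds in. Plant mitochondria keep a small genome of their own for some subunits of the respiratory complexes, the ATP synthase, the mitochondrial ribosome and the cytochrome c maturation pathway, and the nucleus encodes the remaining subunits. The series asks how complexes with parts from both genomes are kept coordinated when the protease is missing. Having 2 lines allows a question that a single line does not: which changes appear in every library of both.

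Levels are given as CPM, the count of a gene scaled to the size of its library, and changes as log2 fold changes with a standard error (SE). The words rose and fell are kept for genes in which edgeR's quasi-likelihood test of the 2 lines' average against wt gave a Benjamini-Hochberg adjusted p under 0.05 over all 20294 genes. The labels do not say whether replicates are separate cultures, so p-values measure only the spread between these libraries, which may be technical. Library totals lay between 36043744 and 36477053 counts. The library wt 2 stood apart from wt 1 and wt 3: over 11803 genes with a mean of at least 10 CPM its median absolute log2 distance from the mean of the other wild-type libraries was 0.125, against 0.0915 and 0.0917. It was also the wild-type library nearest to the mutants in 52.1% of genes. In the carbon starvation gene ASN1, for example, the wild-type libraries held 35.6, 7.55 and 37.2 CPM and the mutants 0.790 to 9.15 CPM. The main counts are therefore also given without this library.

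The test of the mean of both lines called 216 genes, 145 higher and 71 lower. They make up 1.06% of the genes tested (0.714% higher and 0.35% lower). A call for this mean does not require a change in each line. All 6 mutant libraries lay above the 3 wild-type libraries in 501 genes (2.47%) and below them in 433 (2.13%), 4.6% in all, so non-overlap alone was about as frequent in either direction. Both criteria together were met by 126 genes, or 0.621%, with 83 higher and 43 lower. Of these 126 the mitochondrial genome encodes 38, the plastid genome 3 and the nucleus 85. By genome, 38 of 116 mitochondrial genes tested met both criteria, 3 of 77 plastid genes, and 85 of 20101 nuclear genes. The 85 include AT2G07775, AT2G07774 and AT2G07787, whose exon bases match the mitochondrial genome. Without wt 2 the test called 2168 genes, all 216 among them, and 4913 genes did not overlap. Without wt 1 it called 77 and without wt 3 it called 67, and leaving out a mutant library gave 77 to 221.

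The targeted gene came out first by its adjusted p. CLPP2, on chromosome 5 (chr5:7783673-7785547, TAIR10.1), stood at 44.5, 46.5 and 42.9 CPM in the wild type, at 5.72, 4.88 and 6.08 CPM in clpp2-1 and at 4.64, 4.64 and 4.52 CPM in clpp2-2. No mutant library came near a wild-type one, and the lines did not pass the test of their own difference (log2 -0.27, adjusted p = 0.119). The mean change was 8.82-fold lower (log2 -3.14, SE 0.0656, adjusted p = 2.12e-07). CLPX, CLPX2 and CLPX3, the chaperone partners, did not pass (log2 -0.04, 0.11 and 0.14, adjusted p = 0.492, 0.179 and 0.444). CLPX3 differed between the lines, at 43.4 to 53.0 CPM in clpp2-1 and 72.8 to 76.0 CPM in clpp2-2, beside 46.5 to 62.9 CPM in the wild type (adjusted p = 0.0211). Among the 19 tested genes within 10 gene positions of CLPP2, edgeR, limma-voom and DESeq2 called 0, and 2 had an unadjusted p under 0.05 in edgeR.

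Of the 116 mitochondrial genes tested 38 met both criteria, beside 0.621% of all genes. Transcripts of the mitochondrial genome took 0.0554% ± 0.00269 of all counts in the wild type (SD, n = 3) and 0.103% ± 0.0106 in the mutants (SD, n = 6), a 1.85-fold higher share. The highest wild-type library reached 0.0585% and the lowest mutant library 0.0858%, so the groups did not overlap. By line, the share was 0.0858% to 0.1065% in clpp2-1 and 0.1049% to 0.1138% in clpp2-2. The SD of the mutants and the test that follows take these 6 libraries as 1 group, so that SD also holds any difference between the lines. An exact two-sided permutation test gave p = 0.0119, the smallest of its 84 arrangements, and 0.0238 after adjustment over the 2 organelle shares tested. In whole seedlings, more cells of a type and more RNA per cell cannot be told apart. Plastid transcripts took 0.397% ± 0.0361 of counts in the wild type (n = 3) and 0.485% ± 0.0637 in the mutants (n = 6), with overlapping libraries (exact permutation p = 0.0714, also after adjustment).

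Within the mitochondrial genome 37 of the 116 genes tested rose and 1 fell, beside 0.714% and 0.35% of all genes tested. The sizes were uneven. The median log2 change of the 37 was 1.31 in clpp2-1 and 1.54 in clpp2-2, which share the wild-type libraries. Gene names are attached here to the mitochondrial identifiers by their standard designations, since the annotation used does not hold them. The ATP synthase genes moved most as a group: 5 of 6 rose, with a median log2 change of 1.25 over the list, beside -0.01 over all genes tested. One of them, atp9 (ATMG01080), which encodes the ring subunit, stood at 12.8, 13.6 and 14.6 CPM in the wild type, 44.1, 58.9 and 50.2 CPM in clpp2-1 and 51.7, 47.6 and 47.5 CPM in clpp2-2. All 6 mutant values were more than 3 times the highest wild-type value (log2 1.87, SE 0.098, adjusted p = 8.80e-05). For atp8 (ATMG00480) the wild-type libraries held 2.59 to 3.59 CPM and the mutants 10.7 to 15.4 CPM (log2 2.09, SE 0.159, adjusted p = 0.000808). Another member, atp1 (ATMG01190), the alpha subunit, went from 46.1 to 51.4 CPM in the wild type to 83.8 to 115 CPM in the mutants (log2 1.07, SE 0.075, adjusted p = 0.000519). The range of changes within this one complex was thus wider than the difference between the lines for any of the 3 genes, whose adjusted p between lines was 0.781, 0.631 and 0.125.

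Complex I genes of the mitochondrial genome rose in 5 of 13 cases, beside 37 of all 116 mitochondrial genes tested. The list median was 0.47 (0.66 without wt 2), and the median over the 116 was 0.40. In nad3 (ATMG00990) the 3 wild-type libraries held 8.69, 5.10 and 8.66 CPM and the mutants 18.0 to 23.4 CPM (log2 1.46, SE 0.173, adjusted p = 0.00799). The core subunit gene nad7 (ATMG00510) had 9.14 to 9.99 CPM in the wild type and 19.1 to 28.5 CPM in the mutants (log2 1.26, SE 0.088, adjusted p = 0.000519). Of the cytochrome genes cox1, cox2 and cox3, which encode the catalytic core of cytochrome c oxidase, rose by log2 0.53, 1.30 and 0.65, and cob, of complex III, did not pass (log2 0.12). The call of cox1 was lost when wt 1, wt 3, clpp2-1 3 or any single clpp2-2 library was left out (adjusted p = 0.068 to 0.121). Among ribosomal protein genes 3 of 7 rose, led by rps12 (ATMG00980), at 6.35 to 9.24 CPM in the wild type and 18.0 to 23.4 CPM in the mutants (log2 1.35, SE 0.127, adjusted p = 0.00243). The other called ones were rpl2 and rpl5; rpl2 lost its call when either wt 1 or wt 3 was left out, or without clpp2-1 3 or any single clpp2-2 library (adjusted p = 0.0539 to 0.112) and rpl5 without wt 3 or clpp2-2 2 (0.0915 and 0.0516).

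The single gene that fell, ccmC, stands against this direction. By non-overlap alone, 45 of the 116 mitochondrial genes were higher and 6 lower, beside 2.47% and 2.13% of all genes. Among the lower ones was nad9 of complex I, at 4.88 to 5.68 CPM in the wild type and 3.12 to 4.86 CPM in the mutants. It did not pass the test (log2 -0.41, adjusted p = 0.126). The gene ccmC (ATMG00900), which serves the delivery of haem to cytochrome c, had 4.97, 5.77 and 4.95 CPM in the wild type, 2.29, 2.83 and 2.42 CPM in clpp2-1 and 3.87, 3.62 and 3.10 CPM in clpp2-2. Every mutant library was below every wild-type library (log2 -0.81, SE 0.120, adjusted p = 0.0223). Its call ended when either wt 1 or wt 3 was left out, or without clpp2-1 3, clpp2-2 2 or clpp2-2 3 (adjusted p = 0.0513 to 0.0793). In the same list matR, the intron maturase gene, and ccmFC, another cytochrome c maturation gene, rose by log2 0.99 and 0.85. The latter call ended when either wt 1 or wt 3 was left out, or without clpp2-1 3 or any single clpp2-2 library (adjusted p = 0.0562 to 0.112).

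Among the mitochondrial genes that rose, the widest gaps lay in open reading frames that carry identifiers only. ATMG00670 held 1.05, 1.39 and 2.18 CPM in the wild type, 9.97, 12.8 and 11.2 CPM in clpp2-1 and 12.9, 12.2 and 11.8 CPM in clpp2-2 (log2 2.93, SE 0.214, adjusted p = 0.000666). ATMG01010 held 0.377 to 0.585 CPM and 1.93 to 3.62 CPM (log2 2.53), and ATMG01090 7.75 to 9.11 CPM and 30.4 to 42.3 CPM (log2 2.17). ATMG01020 went from 0.390 to 0.646 CPM to 2.56 to 5.38 CPM (log2 3.00, SE 0.251, adjusted p = 0.0013). In these 4 frames the groups lay far apart, with no mutant library near a wild-type one. The frames ATMG01220 and ATMG00030 were the only 2 of the 38 called mitochondrial genes that also differed between the lines, by log2 0.43 (adjusted p = 0.0313) and 0.39 (adjusted p = 0.0328), both higher in clpp2-2.

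**Figure D1:**
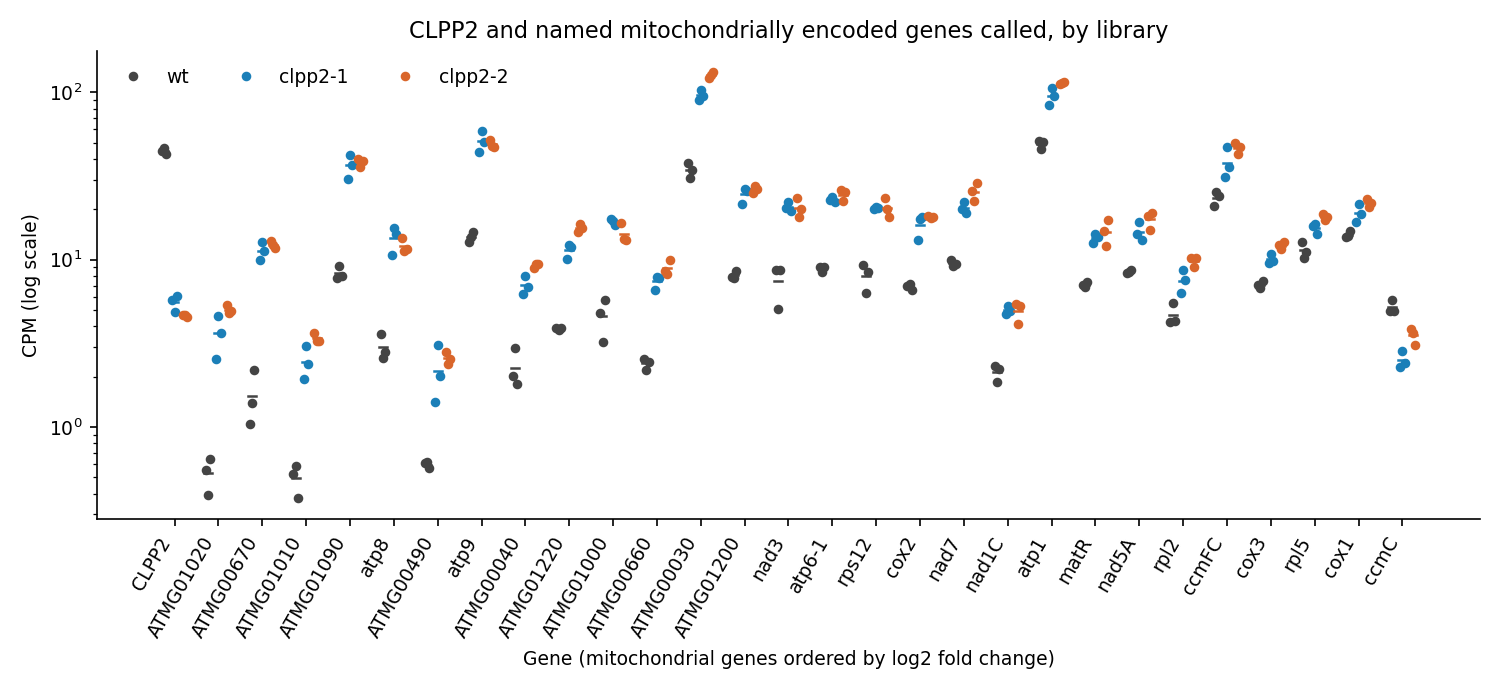
CPM (log axis) of CLPP2 and of the named mitochondrial genes that passed the test, 1 point per library and a bar at each group mean, with the genes ordered by log2 fold change. CLPP2 and ccmC are lower in all 6 mutant libraries and every other gene shown is higher, with atp9 between 44.1 and 58.9 CPM in the mutants against 12.8 to 14.6 CPM in the wild type.

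By non-overlap alone, 15 of the 77 plastid genes tested were higher and 0 lower, beside 2.47% and 2.13% of all genes. The median log2 change over the 77 was 0.32. The 3 called plastid genes met both criteria, all higher, and their rises were smaller than those of most mitochondrial genes called. ATCG00280 had 41.9, 44.2 and 42.5 CPM in the wild type and 52.0 to 66.8 CPM in the mutants (log2 0.50, SE 0.064, adjusted p = 0.0118). ATCG00750 and ATCG01110 rose by log2 0.47 and 0.57. The first call ended without wt 1 or wt 3 (adjusted p = 0.0719 and 0.0696). The second was lost when either wt 1 or wt 3 was left out, or without clpp2-1 1, clpp2-1 3 or any single clpp2-2 library (0.057 to 0.193), and the third without wt 1, wt 3 or any single clpp2-2 library (0.0636 to 0.159).

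A fold of at least 2 was reached by 47 of the 126 genes, of which 28 were mitochondrial and 19 nuclear. Among the 126, the 43 nuclear genes that rose had a median log2 change of 0.43, which was 0.24 in clpp2-1 and 0.60 in clpp2-2. The 42 nuclear genes among them that fell had median changes of -0.28 and -0.68 in the 2 lines. With overlapping genes included, 105 nuclear genes rose and 70 fell. These sizes describe genes chosen for passing the test, and are not set against other genes. The median levels of the 43 and the 42 genes, 24.7 and 16.9 CPM, were not far from the 14.7 CPM of all nuclear genes. Their median exon lengths of 1594 and 1642 bases were near the 1757 of all.

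Among the nuclear genes that rose, 3 lie in a stretch of chromosome 2 that carries mitochondrial DNA, and 100% of their exon bases match the mitochondrial genome at 95% identity or more. Shown here are the opening 90 bases of the longest coding exon of AT2G07775 (chr2:3483687-3483776, plus strand), AT2G07774 (chr2:3304484-3304573, minus strand) and AT2G07787 (chr2:3478015-3478104, plus strand), read from the TAIR10.1 genome and printed 5′ to 3′ in the direction of the gene. Each is found once in the mitochondrial genome with no base changed, so no base is in capitals.
AT2G07775: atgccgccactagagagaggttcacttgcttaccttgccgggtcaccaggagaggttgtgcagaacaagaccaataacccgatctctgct
AT2G07774: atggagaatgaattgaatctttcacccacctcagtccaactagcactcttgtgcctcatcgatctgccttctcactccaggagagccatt
AT2G07787: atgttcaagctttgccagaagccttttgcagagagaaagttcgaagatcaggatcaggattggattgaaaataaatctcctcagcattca
The mitochondrial copies of these stretches begin at positions 149892, 322606 and 155568 of that genome. A read from such a stretch carries nothing that tells the nuclear from the mitochondrial copy.

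The 3 genes changed by amounts within the range of the mitochondrial genes. AT2G07775 held 1.297, 1.728 and 1.507 CPM in the wild type, 3.322, 4.553 and 3.964 CPM in clpp2-1 and 4.667, 4.497 and 4.799 CPM in clpp2-2. The groups lay clearly apart (log2 1.503, SE 0.1504, adjusted p = 0.0032), and the call held with each library left out. AT2G07774 rose by log2 1.197 and AT2G07787, which was named after its values were seen, by log2 0.65. Their calls ended when either wt 1 or wt 3 was left out, or without clpp2-1 3 or any single clpp2-2 library (adjusted p = 0.0654 to 0.143 and 0.0795 to 0.180), the latter also without clpp2-1 2. The origin of the reads, chromosome 2 or the mitochondrial genome, was not tested.

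AT4G36850 showed the widest gap of any nuclear gene that rose. It encodes a membrane protein with PQ-loop repeats, has 4 annotated transcripts on chromosome 4 (chr4:17353291-17356037, TAIR10.1), and had 0 counts in all 3 wild-type libraries. The mutants held 5.15, 4.53 and 8.66 CPM in clpp2-1 and 9.58, 5.03 and 12.6 CPM in clpp2-2, with at least 166 counts in each library. Against a floor of 3 counts per library the mean of the mutants was at least 92.1-fold higher (adjusted p = 0.00403). The counts are estimates, and how the authors' tool divided reads between the 4 transcripts is not known here.

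The remaining nuclear genes that rose in both lines did so by smaller steps, and their products have varied roles. The serine carboxypeptidase-like gene scpl48 had 18.8, 17.3 and 20.9 CPM in the wild type, 33.3, 34.4 and 33.5 CPM in clpp2-1 and 25.7, 27.9 and 28.8 CPM in clpp2-2 (log2 0.68, SE 0.067, adjusted p = 0.0029). AT4G26600, a methyltransferase gene by its annotation, had 22.5, 17.9 and 19.0 CPM in the wild type, 40.7, 45.6 and 40.3 CPM in clpp2-1 and 39.7, 27.2 and 39.9 CPM in clpp2-2 (log2 0.97, SE 0.136, adjusted p = 0.017). In both genes the mean was higher in clpp2-1 than in clpp2-2, without passing the test of that difference (adjusted p = 0.0659 and 0.392). The call of scpl48 held with each library left out, and that of AT4G26600 was lost without wt 3 (adjusted p = 0.0915).

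ARI15, a RING-domain protein of the Ariadne type, had 15.9, 16.2 and 16.3 CPM in the wild type, 20.2, 22.9 and 20.7 CPM in clpp2-1 and 29.19, 24.01 and 25.91 CPM in clpp2-2 (log2 0.55, SE 0.072, adjusted p = 0.0123). BRG1, a RING-domain gene as well, had 34.6 to 36.8 CPM in the wild type and 42.2 to 52.9 CPM in the mutants (log2 0.42, SE 0.043, adjusted p = 0.00373). EBF1 and EBF2, F-box proteins that target the ethylene response factor EIN3 for degradation, rose by log2 0.33 and 0.23 (adjusted p = 0.0273 and 0.0239). The EBF1 libraries held 72.8, 74.4 and 81.2 CPM in the wild type and 89.99 to 102.4 CPM in the mutants, and those of EBF2 176.6 to 181.4 CPM and 189.8 to 229.9 CPM. None of these groups overlapped. The membrane-anchored ubiquitin ligase RMA2 rose by log2 0.53. Only BRG1 kept its call with each library left out. ARI15 lost it without wt 1 or wt 3 (adjusted p = 0.0658 to 0.067), EBF1 without wt 1, clpp2-1 3, clpp2-2 2 or clpp2-2 3 (0.0675 to 0.109) and EBF2, named after its values were seen, without these or wt 3 (0.0647 to 0.0949). RMA2 lost it without any library except wt 2 (0.0606 to 0.139).

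Of the 15 nuclear genes with the widest gap, the 4 named next encode enzymes or an assembly factor, and none of them was called different between the lines (adjusted p = 0.442 to 0.806). FPS2, which makes the sterol precursor farnesyl diphosphate, had 9.85, 11.1 and 10.6 CPM in the wild type, 14.3, 14.7 and 13.4 CPM in clpp2-1 and 13.04, 14.42 and 13.72 CPM in clpp2-2 (log2 0.41, SE 0.063, adjusted p = 0.0267). AT5G27410, an aminotransferase-like enzyme, had 19.6 to 21.0 CPM in the wild type and 25.7 to 29.0 CPM in the mutants (log2 0.39, SE 0.050, adjusted p = 0.0123). NAPRT2, an enzyme of NAD salvage, rose by log2 0.26, and AT2G20390, annotated as a cytochrome oxidase assembly protein, rose by log2 0.25. The latter was the single gene of these 15 whose annotation names a respiratory complex. AT5G27410 lost its call without wt 1 or wt 3 (adjusted p = 0.0558 to 0.067), and FPS2 without any library except wt 2, clpp2-1 1 and clpp2-2 1 (0.0545 to 0.113). NAPRT2 and AT2G20390 lost theirs without any library except wt 2 (0.0529 to 0.149 and 0.0518 to 0.121).

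CLPP2 aside, the genes of at least 1 CPM that fell in both lines were led, by the width of the gap, by GLYI7, a gene of the glyoxalase I family. GLYI7 held 9.30, 4.38 and 9.87 CPM in the wild type, 1.14, 2.13 and 2.66 CPM in clpp2-1 and 1.81, 1.22 and 1.75 CPM in clpp2-2. All mutant libraries were below the wild type, and wt 2 lay closest to them (log2 -2.14, SE 0.310, adjusted p = 0.0195). The pectin methylesterase family gene AT2G45220 had 28.8, 22.7 and 24.2 CPM in the wild type, 17.3, 5.75 and 11.3 CPM in clpp2-1 and 4.83, 6.56 and 6.12 CPM in clpp2-2 (log2 -1.63, SE 0.270, adjusted p = 0.0342). SWEET2, a sugar transporter, held 13.2, 7.38 and 12.3 CPM in the wild type and 4.92 to 5.87 CPM in the mutants (log2 -0.99, SE 0.166, adjusted p = 0.0346). Here too wt 2 was the lowest wild-type library. GLYI7 lost its call when either wt 1 or wt 3 was left out, or without clpp2-1 2 or any single clpp2-2 library (adjusted p = 0.0511 to 0.0932). AT2G45220 lost it when either wt 1 or wt 3 was left out, or without clpp2-1 3 or any single clpp2-2 library (0.0888 to 0.136), and SWEET2 without any library except wt 2 (0.0606 to 0.158).

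Other lower genes with a wide gap differ in their roles. TRX5, a cytosolic thioredoxin, had 10.04, 6.716 and 7.291 CPM in the wild type, 5.66, 3.63 and 4.53 CPM in clpp2-1 and 3.02, 3.11 and 3.13 CPM in clpp2-2 (log2 -1.09, SE 0.164, adjusted p = 0.0235). PRR9, a repressor of the circadian clock, had 13.4, 11.9 and 12.6 CPM in the wild type, 10.7, 8.91 and 9.56 CPM in clpp2-1 and 8.87, 7.80 and 7.37 CPM in clpp2-2 (log2 -0.52, SE 0.084, adjusted p = 0.0302). LYK4, a receptor kinase of chitin perception, fell by 0.87 on the log2 scale, and DRIP1, a ubiquitin ligase for the drought factor DREB2A, by 0.60. In each of these 4 genes the clpp2-2 mean was the lower of the lines, without a call between them. TRX5 lost its call when either wt 1 or wt 3 was left out, or without clpp2-1 3 or any single clpp2-2 library (adjusted p = 0.0641 to 0.0827), and PRR9 without any library except wt 2, clpp2-1 1 and clpp2-2 1 (0.0614 to 0.126). DRIP1 lost its call without any library except wt 2 and clpp2-1 1 (0.0549 to 0.137), and LYK4 without any except wt 2 (0.0732 to 0.136).

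ENODL8, an early nodulin-like protein, had 20.0, 19.6 and 19.1 CPM in the wild type, 16.4, 16.6 and 16.8 CPM in clpp2-1 and 9.75, 11.6 and 12.1 CPM in clpp2-2 (log2 -0.53, SE 0.067, adjusted p = 0.0114). AT1G06000, a UDP-glycosyltransferase family gene, had 44.3 to 49.7 CPM, 37.6 to 41.2 CPM and 29.3 to 32.8 CPM (log2 -0.43, SE 0.054, adjusted p = 0.0105). In both the libraries of the 3 genotypes formed 3 separate ranges in the same order, and both calls ended without wt 1 or wt 3 (adjusted p = 0.0582 to 0.0642). AT5G44060 and AT1G05340 fell by 0.68 and 0.85 on the log2 scale, and AT3G49320 and AT1G12064 rose by 0.35 and 1.92. Of these last 4, AT3G49320 kept its call without wt 2 and without clpp2-2 1, and the other 3 kept theirs only without wt 2 (adjusted p = 0.0533 to 0.150 otherwise).

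Calls that held with each library left out were fewer. Of the 42 nuclear genes that fell and did not overlap, 7 kept their call under all 9 omissions, as did 7 of the 43 that rose, 28 of the 38 mitochondrial genes and 0 of the 3 plastid genes. Of the 7 lower ones 4 were among the 15 with the widest gap, CLPP2 being the first. AT3G56210, which encodes a protein with armadillo repeats, had 139, 131 and 139 CPM in the wild type, 89.9, 93.8 and 92.0 CPM in clpp2-1 and 108, 111 and 108 CPM in clpp2-2 (log2 -0.44, SE 0.034, adjusted p = 0.000881). It was lower in clpp2-1 than in clpp2-2 (adjusted p = 0.0177). AT2G17845, a Rossmann-fold oxidoreductase by annotation, fell by 1.07 and ARO3, another armadillo repeat gene, by 0.37 on the log2 scale. For both the drop was deeper in clpp2-2 (adjusted p = 0.0387 and 0.0155). With the replicate numbers fitted as a block, the call was kept by 18 of the 42 lower and 12 of the 43 higher nuclear genes. It was kept by 29 of the 38 mitochondrial genes, ccmC not among them, and by 1 of the 3 plastid genes.

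**Figure D2:**
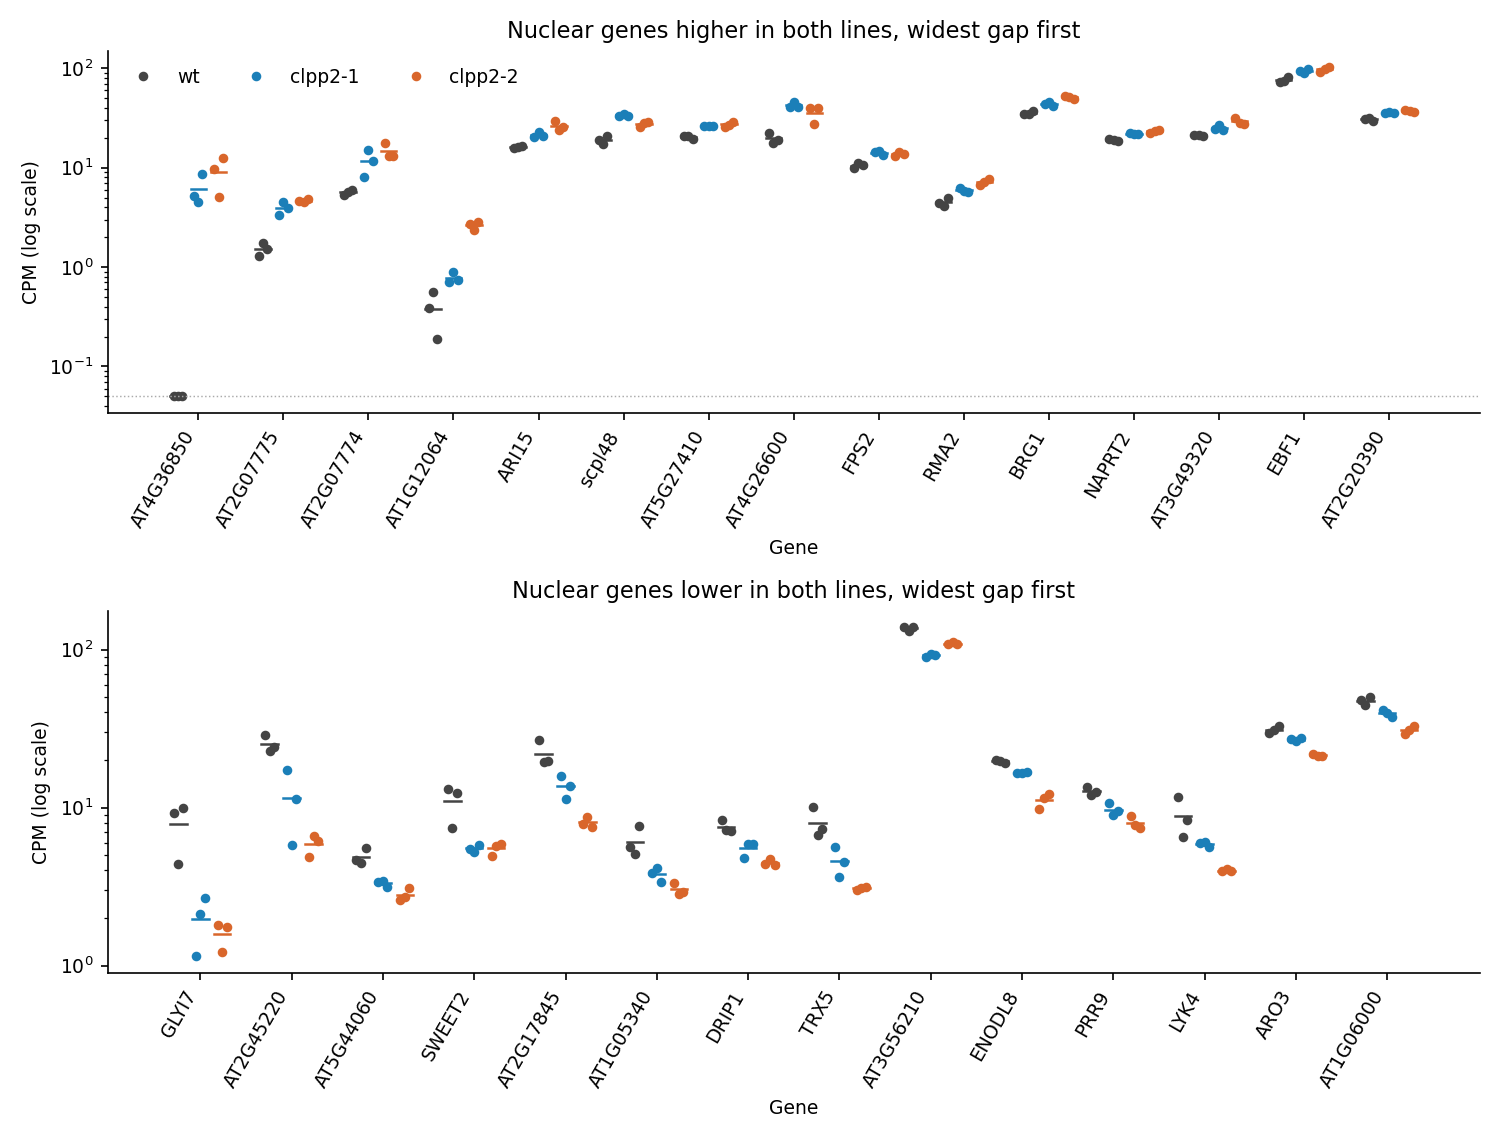
CPM (log axis) of the nuclear genes with the widest gap between mutant and wild-type libraries, CLPP2 left out, 1 point per library and a bar at each group mean. Points on the dotted line stand for 0 counts and mark AT4G36850 in the wild type; in GLYI7 and SWEET2 wt 2 is the wild-type library nearest to the mutants.

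The lipid transfer protein genes LTP3 and LTP4, which lie side by side on chromosome 5 and were named after their values were seen, show how unequal the lines could be within the non-overlapping set. LTP4 held 123.2, 148.1 and 98.4 CPM in the wild type, 95.4, 58.7 and 72.2 CPM in clpp2-1 and 10.5, 12.2 and 16.8 CPM in clpp2-2. All mutant libraries were lower, but clpp2-2 lay far below clpp2-1 (difference log2 -2.52, adjusted p = 0.00184). LTP3 repeated this order at 48.0 ± 3.35, 36.01 ± 4.56 and 16.2 ± 1.29 CPM (SD, n = 3 each). The 2 are related in sequence, and how reads were divided between them is not known here. Among genes that rose, TEM1, a repressor of flowering, had 45.4 to 49.1 CPM in the wild type, 51.9 to 57.8 CPM in clpp2-1 and 90.3 to 105 CPM in clpp2-2. LBD40, a gene of the LOB domain family, showed the same order at 49.5 to 58.6, 62.3 to 65.4 and 114 to 126.7 CPM. Both were named after their values were seen, and both differed between the lines (adjusted p = 0.000836 and 0.000695).

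A difference between the lines was called for 806 of all genes tested (3.97%). Among the 216 genes changed in the mean of both lines it was called for 129. They were unevenly spread: 41 of the 126 non-overlapping genes and 88 of the 90 overlapping ones. In 88 of the 90 the larger change was in clpp2-2 and in 2 it was in clpp2-1. The overlap rule and the line comparison use the same libraries, so the split between the 2 sets is a description. YSL6, a transporter of metal complexes, illustrates the first kind, with 20.6 to 21.1 CPM in the wild type, 20.3 to 21.8 CPM in clpp2-1 and 49.3 to 52.9 CPM in clpp2-2 (difference log2 1.27, adjusted p = 4.16e-05). PYL6, an abscisic acid receptor gene, held 46.8 to 47.5, 45.4 to 48.1 and 24.4 to 24.9 CPM (difference log2 -0.93, adjusted p = 4.34e-05). In both, the clpp2-1 libraries overlapped the wild-type libraries. MRD1, AT1G80440 and AT2G20670 were of this kind too, with changes of log2 3.37, 2.12 and 0.97 in clpp2-2 beside 0.30, -0.04 and -0.06 in clpp2-1. MLS, the malate synthase of the glyoxylate cycle, which was named after its values were seen, held 49.3 to 86.7, 65.5 to 99.5 and 522.8 to 706.1 CPM, and lost its call without wt 1 or wt 3 (adjusted p = 0.0582 to 0.0642).

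The 2 genes with the larger change in clpp2-1 were also named after their values were seen. AT3G09360, of the family of the transcription factor Brf1, had 0 counts in all 3 clpp2-1 libraries, 5.13, 2.79 and 2.04 CPM in the wild type and 5.44, 4.75 and 8.44 CPM in clpp2-2. Against a floor of 3 counts per library it was at least 40.7-fold lower in clpp2-1 than in the wild type. Its mean in clpp2-2, 6.21 CPM, lay above the 3.32 CPM of the wild type, so the call for the average of the lines rests on the 0 counts in clpp2-1. The fitted log2 change of that average was -4.51, between -4.75 and -3.43 in the other settings with lines weighted equally, and -0.10 with the mutants as 1 group (adjusted p = 0.979). The call ended in limma-voom (adjusted p = 0.0535) and without clpp2-1 3, clpp2-2 1 or clpp2-2 2 (0.0552 to 0.0699). AT5G01990, an auxin efflux carrier family gene, held 23.3 to 25.8 CPM in the wild type, 12.9 to 14.6 CPM in clpp2-1 and 20.64 to 23.48 CPM in clpp2-2, and lost its call without wt 3 (adjusted p = 0.0662).

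**Figure D3:**
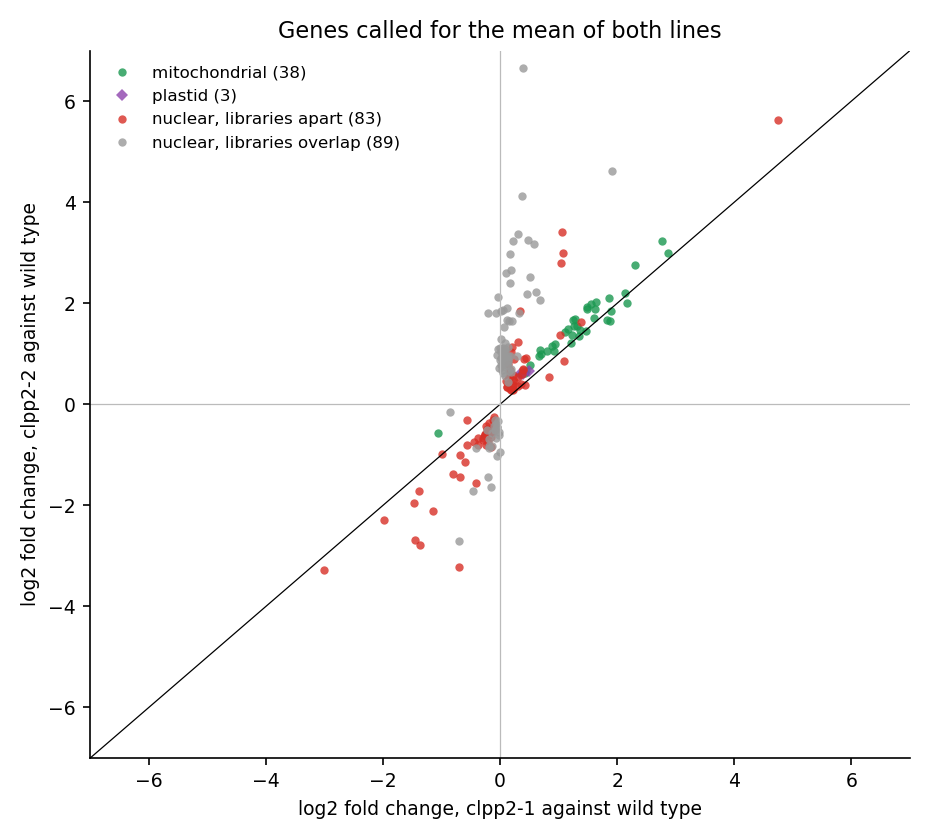
Log2 fold change of clpp2-2 (vertical) against that of clpp2-1 (horizontal) for the genes called for the mean of both lines, with the diagonal of equal change; both axes use the same wild-type libraries. AT4G36850, AT1G49200 and AT3G09360, which are at 0 counts in a whole group, are left out. The 38 mitochondrial genes lie along the diagonal, and the grey nuclear genes whose libraries overlap the wild type lie mostly along the vertical axis.

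Taking the 6 mutant libraries as 1 group, so that differences between the lines count as error, left 35 called genes, 33 higher and 2 lower, all of them among the 126. Of these, 29 were mitochondrial. The 6 nuclear ones were CLPP2 and GLYI7, lower, and AT4G36850, AT2G07775, AT5G27410 and AT4G26600, higher. AT2G07775 is counted as nuclear by its identifier, though its exon bases match the mitochondrial genome and the origin of its reads was not tested. For scpl48 and SWEET2 the adjusted p in this fit was 0.0572 and 0.0626.

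The rule of non-overlap has an edge, and called genes lay on either side of it. Just inside lay RLP50, a receptor-like protein gene, CYP71B3, a cytochrome P450 gene, and ROC2, a cyclophilin gene. In ROC2 the highest wild-type library stood at 54.6 CPM and the lowest mutant library at 54.7 CPM. Just outside lay AT5G57710, GRP2B and ABCG7. For GRP2B, a glycine-rich RNA-binding protein, the highest wild-type library stood at 9.34 CPM and the lowest mutant at 9.29 CPM. The calls of RLP50, CYP71B3 and ROC2 were lost in 11, 8 and 9 of the 17 other settings. Those of AT5G57710, GRP2B and ABCG7 were lost in 13, 10 and 12. Each of these calls ended without wt 1 and also without wt 3.

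Lists of nuclear genes for mitochondrial functions were read beside the shares called over all genes, which were 1.06% in edgeR, 0.956% in limma-voom, 5.93% in DESeq2, 10.6% in edgeR without wt 2 and 20.4% at an unadjusted p under 0.05. The nuclear subunits of complex I (19 tested), those of complexes II to V (21), mitochondrial protein import (12), the mitochondrial dysfunction stimulon (17), mitochondrial RNA polymerase, turnover and splicing factors (18) and mitochondrial proteases and chaperones (18) had 0 members called by edgeR or by limma-voom. Their medians lay between -0.02 and 0.11 on the log2 scale. All 6 mutant libraries lay above the wild type in 2, 2, 0, 0, 1 and 3 members in that order. They lay below it in 0 members of each list, beside 2.47% of all genes above and 2.13% below. Unadjusted p was under 0.05 for 6, 3, 1, 1, 6 and 9 members in that order, and DESeq2 called 2, 1, 0, 0, 1 and 5. Without wt 2 edgeR called 2, 0, 0, 1, 1 and 3, where it called 10.6% of all genes. Over the complex I lists the median was 0.04 for nuclear and 0.47 for mitochondrial genes. Single nuclear complex I members ranged from log2 -0.13 to 0.18.

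Single members ranged more widely, from log2 -2.71 to 0.37 in the stimulon and from -0.83 to 0.30 among the proteases and chaperones. The -0.83 was that of HSP23.6-MITO. Of the 9 proteases and chaperones at an unadjusted p under 0.05 in edgeR, HSP23.6-MITO was the only one lower in the mutants. AOX1A, the alternative oxidase that marks mitochondrial stress in Arabidopsis, stood at 95.3, 129.9 and 147.8 CPM in the wild type, 127.8, 153.5 and 129.7 CPM in clpp2-1 and 94.3, 83.5 and 96.4 CPM in clpp2-2 (log2 -0.15, adjusted p = 0.531). The groups overlapped. LON1, a matrix protease, held 111 to 121 CPM in the wild type and 117.7 to 147.5 CPM in the mutants (log2 0.21, adjusted p = 0.154). HSP60, a matrix chaperone, held 257 to 276 CPM and 289.6 to 329.8 CPM, so that its libraries did not overlap, with log2 0.20 and an adjusted p of 0.127.

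The other lists were read beside the same shares, 1.06% of all genes called in edgeR and 5.93% in DESeq2. PRR9 was the only called member of 10 circadian clock genes. COR15B and CBF2, of the cold response, were the 2 called of 8 cold-regulated genes. DESeq2 called 2 members of the clock list and 3 of the cold list. COR15B held 1.48 to 2.79 CPM in the wild type, 1.96 to 2.51 CPM in clpp2-1 and 12.2 to 13.2 CPM in clpp2-2, and CBF2 0.248 to 0.641, 0.624 to 0.763 and 3.93 to 4.52 CPM. COR15B lost its call without wt 1, clpp2-1 3 or clpp2-2 2 (adjusted p = 0.0507 to 0.0827), and CBF2 without wt 3, clpp2-1 2, clpp2-1 3 or any single clpp2-2 library (0.0547 to 0.103). Iron deficiency and storage (11 tested), carbon starvation (14), hypoxia and fermentation (11), phosphate starvation (9) and salicylic acid and defence (9) had 0 called by edgeR and limma-voom, with 3, 8, 4, 1 and 3 members at an unadjusted p under 0.05 and 2, 5, 1, 0 and 1 called by DESeq2. Without wt 2 edgeR called 4, 5, 1, 0 and 2 of them, where it called 10.6% of all genes, and DESeq2 called 5.93% of all. The carbon starvation median was -0.20.

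Marker genes of tissues were examined beside these results. None of the 7 green tissue markers, 10 root markers or 6 seed storage markers passed in edgeR or limma-voom, with 0, 3 and 6 at an unadjusted p under 0.05, DESeq2 calling 0, 0 and 1, and edgeR without wt 2 calling 1, 3 and 1, beside 5.93% and 10.6% of all genes in those fits. The summed green markers, led by RBCS1A, ranged from 9743 to 14850.0 CPM in the wild type, 11330.0 to 12780.0 CPM in clpp2-1 and 12750.0 to 16620.0 CPM in clpp2-2. Root markers summed to 293.5 to 482.8, 267 to 400 and 253 to 274 CPM. The seed storage sum was uneven within genotypes, from 0.377 to 108 CPM in the wild type, 0.896 to 13.1 CPM in clpp2-1 and 0.632 to 1.13 CPM in clpp2-2, with the highest value in wt 1 and the lowest in wt 3. Of 5 floral markers tested 1 fell, SEP3, beside 0.35% of all genes. SEP3 held 8.21 to 9.92 CPM in the wild type, 7.03 to 9.61 CPM in clpp2-1 and 3.39 to 3.46 CPM in clpp2-2. Its call was lost without wt 1 or clpp2-2 2 (adjusted p = 0.0765 and 0.0509). Floral markers summed to 11.0 to 12.68 CPM in the wild type, 9.608 to 12.69 CPM in clpp2-1 and 4.53 to 4.939 CPM in clpp2-2. The part of tissue make-up in the changes above was not tested.

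**Figure D4:**
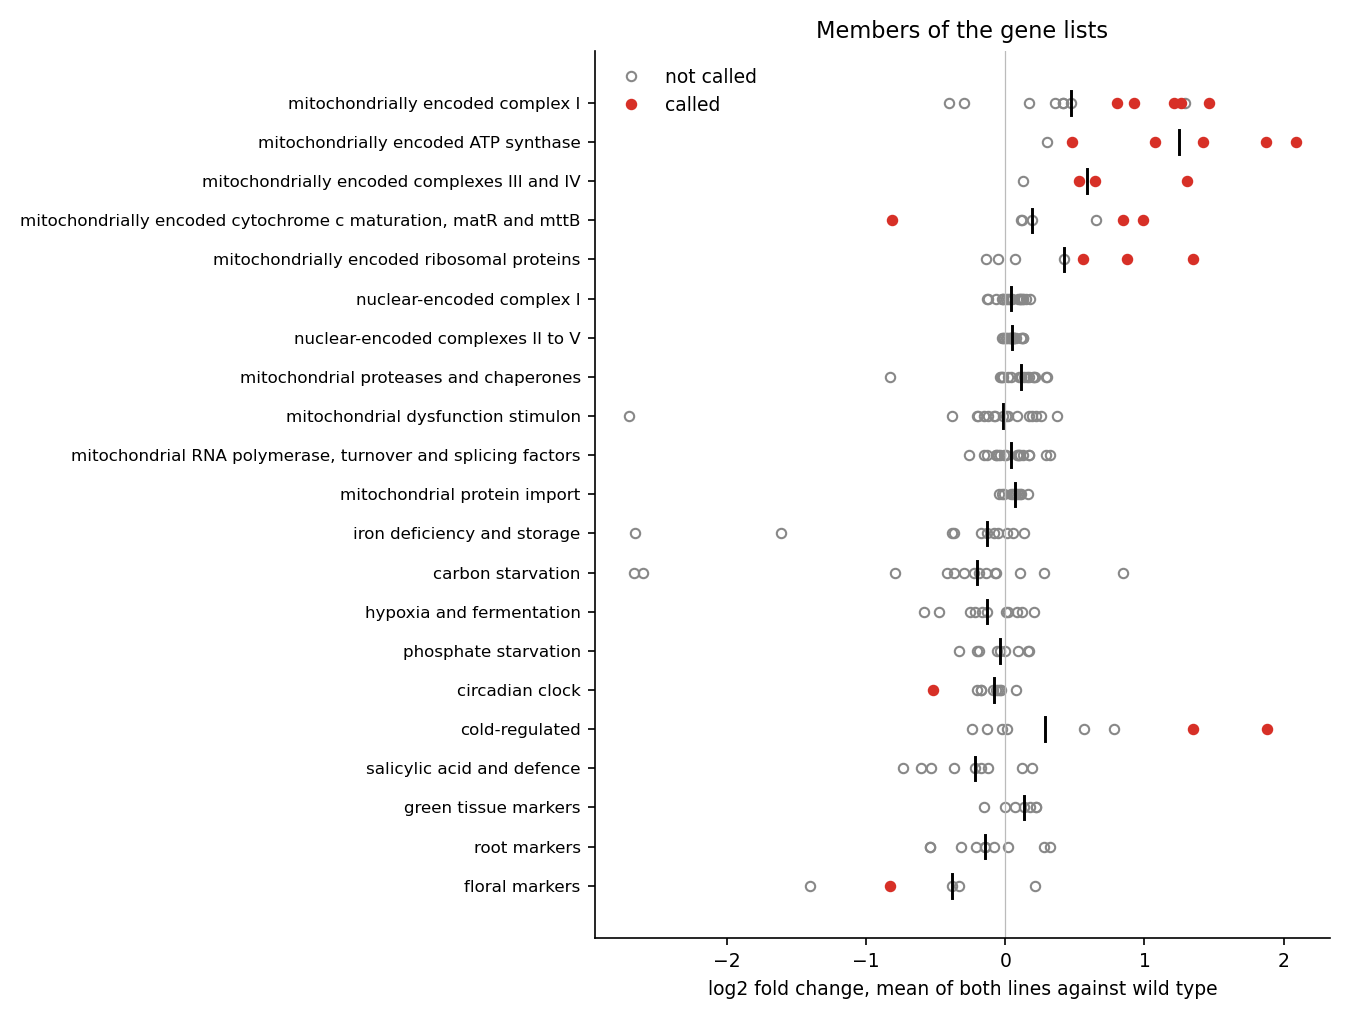
Log2 fold change of the mean of both lines for each tested member of the gene lists, with called members filled, the other members open and a bar at each list's median; the seed storage list, with a median of -4.86, is left out for scale. Called members cluster in the mitochondrially encoded lists, where the ATP synthase median is 1.25, and the medians of the nuclear lists of mitochondrial function lie between -0.02 and 0.11, with single members as low as -2.71.

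The mitochondrial dysfunction motif, bound by NAC factors of the mitochondrial retrograde pathway, was searched in the 1000 bases before each nuclear gene, on either strand. Its letters are CTTG, then 5 bases of any kind, then CA, then A or C, and G. It occurred in 4.02% of the promoters of all nuclear genes tested, in 0 of the 43 promoters of genes that rose without overlap, in 0 of the 42 of genes that fell, and in 4 of 17 of the mitochondrial dysfunction stimulon list. The pattern first searched, with any base before the last G, occurred in 7.16% of all promoters, 1 of 43 and 2 of 42. The form with A or C there was added after the data were seen. At 4.02% of all promoters, few matches can be looked for in sets as small as 43 and 42. A match is a description of these letters only.

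**Figure D5:**
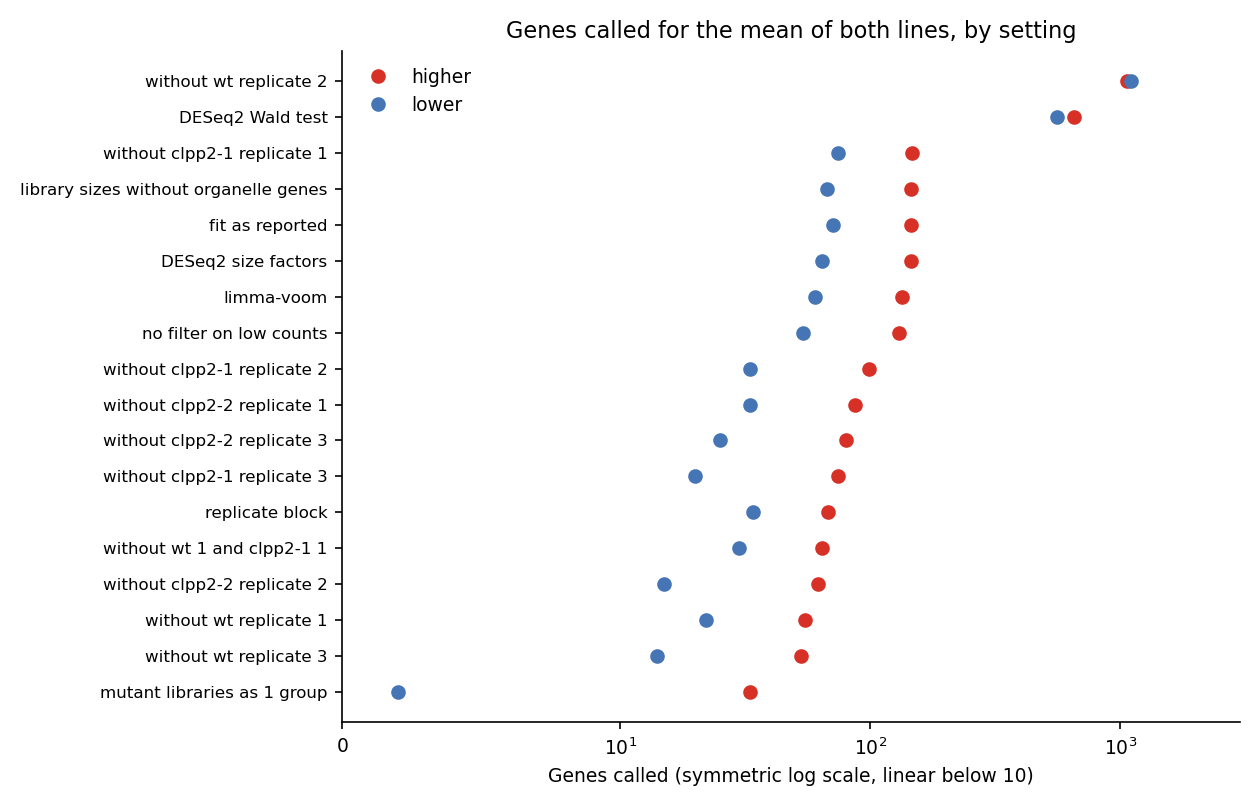
Number of genes called higher and lower for the mean of both lines (symmetric log axis) in the fit as reported and under each other setting. The count without wt 2 (1064 higher, 1104 lower) and that of DESeq2 (651 and 560) lie far above the 145 and 71 of the fit as reported, and the count with the mutants as 1 group (33 and 2) lies below them.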

How the data were processed

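RNA-seq of total RNA from whole seedlings was measured in 9 libraries (3 each of wt, clpp2-1 and clpp2-2), prepared with random hexamers per the labels' protocols. The deposited values are estimated counts per gene, as the authors made them; FastQC, DESeq, DESeq2, Salmon 0.14.0 and the build TAIR10 are listed, without roles, in the submitters' processing notes. Totals of 36043744 to 36477053 lie so close together that a scaling before deposit cannot be told apart from equal sequencing. The precision of a gene follows from its count, and intervals here cover the spread between libraries.

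Counts were rounded, filtered with edgeR's filterByExpr (20294 of 22254 genes kept) and scaled by TMM (factors 0.974 to 1.03). edgeR 4.0.16 in R 4.3.3 fitted 3 groups over all 9 libraries with its quasi-likelihood test, and the contrast gave each line a weight of 0.5 against the wild type. Adjusted p-values follow Benjamini and Hochberg, with a threshold of 0.05 and no covariates. The number of alternative settings was 17, among them limma-voom (limma 3.58.1), DESeq2 1.42.0, another scaling, no filter, a replicate block, the mutants as 1 group and each library left out. The fits were tested on simulated data. Shares used exact permutation tests (SciPy 1.17.1), and sequences were matched with BLAST 2.17.0 against the TAIR10.1 genome of NCBI RefSeq. Tables and figures used Python 3.11.15, NumPy 2.4.6, pandas 2.3.3 and matplotlib 3.10.9.

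Genes were named by rule: CLPP2 and the CLPX genes; up to 15 higher mitochondrial, 15 higher nuclear and 15 lower nuclear genes with the widest gap and a mean of at least 1 CPM, all lower mitochondrial and all called plastid genes; 4 per list by p; 3 on each side of the overlap rule; and 5 that differ between the lines. The members and lists were chosen with earlier results of these data known. The 22 lists name 253 genes and the table has 248 of them.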

Additional observations from a re-analysis of the deposited data

Results flagged for a closer look

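The genes given here changed by different amounts in the lines, by edgeR's quasi-likelihood test of clpp2-2 against clpp2-1 at an adjusted p under 0.05, a call made for 3.97% of all genes tested. Each value is the log2 change in clpp2-2 minus that in clpp2-1; both lines were read against the same wild-type libraries, and the direction given is that of clpp2-2 relative to clpp2-1. No explanation was tested for any of them.

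Among genes whose 6 mutant libraries lay beyond the wild type and that rose, the difference was 0.43 for ATMG01220, 0.39 for ATMG00030, 1.76 for AT1G12064, 0.23 for BRG1, 0.35 for ROC2, 0.22 for EBF2, 0.85 for TEM1 and 0.92 for LBD40. All 8 rose more in clpp2-2. Among those that fell it was -0.76 for AT2G17845, -0.58 for ENODL8, -0.32 for ARO3, -0.35 for AT1G06000, -0.50 for CYP71B3, -2.52 for LTP4 and -1.15 for LTP3. These fell further in clpp2-2, whereas AT3G56210, at 0.25, fell further in clpp2-1.

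Among genes whose mutant libraries overlapped the wild type, the largest differences toward clpp2-2 were in MRD1 (3.07), MLS (2.79), CBF2 (2.59), COR15B (2.50) and AT1G80440 (2.16). YSL6 differed by 1.27, AT2G20670 by 1.03, PCK1, the gluconeogenic carboxykinase, by 1.00, GRP2B by 0.52 and ABCG7 by 0.30. Of the lower genes SEP3 differed by -1.24, PYL6 by -0.93 and AT5G57710 by -0.22. AT5G01990 differed by 0.71, being lower in clpp2-1. AT3G09360 differed by 10.82, a fitted value that depends on the prior count because all 3 clpp2-1 libraries hold 0 counts.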

How the results depend on the processing

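The number of called genes depended on the setting, while none of the 216 changed direction in any setting. DESeq2 called 1211 genes (651 higher, 560 lower, 1144 nuclear), of which 581 also differed between the lines. The mutants as 1 group gave 35 (33 higher, 2 lower, 6 nuclear), and a fold of at least 2 left 70. With the replicate block 102 were called (68 higher, 34 lower, 72 nuclear, 55 differing between the lines). Of the 126 non-overlapping genes 60 remained called with the block, 29 mitochondrial and 30 nuclear ones among them; calls ended by it include those of ccmC, cox1, rpl2 and ccmFC. The fit as reported did not take the replicate numbers to pair the libraries. Deviations of same-numbered wt and clpp2-1 libraries correlated at 0.253, 0.209 and 0.115, above all different-numbered pairs of these groups (-0.356 to 0.095). Between wt and clpp2-2 same-numbered ones gave 0.061, 0.087 and -0.006, and different-numbered ones -0.118 to 0.07. Between the lines same-numbered ones gave -0.169, -0.010 and -0.179. There clpp2-1 1 correlated best with clpp2-2 3 among the clpp2-2 libraries (0.174). Whether the numbers mark libraries handled together was not tested. Without wt 1 and clpp2-1 1 together 94 were called (64 higher, 30 lower, 65 nuclear, 42 differing). Leaving out each library in turn gave 67 to 2168 called genes, 53 to 1064 higher, 14 to 1104 lower, 39 to 2111 nuclear and 31 to 725 differing between the lines. The lowest counts of called genes came without wt 3 and the highest without wt 2. Non-overlapping genes numbered 1066 to 4913, more than the 934 with all libraries, since fewer libraries must be apart. Mitochondrial calls stayed between 28 and 43, the difference in mitochondrial share between 0.0451 and 0.0507 percentage points, and the log2 change of CLPP2 between -3.17 and -3.09. Named genes that changed sign were RCA, a green tissue marker that ranged from -0.017 (without wt 3) to 0.32 with a library left out, and the floral marker PI, which ranged from -0.91 to 0.19 (without wt 3) and stood at 0.38 by limma-voom and 0.10 with the replicate block; the cause was not tested.
The share of promoters with the motif, in genes called without overlap, was 2.33% (higher) and 4.76% (lower) with any base before the last G, and 0% in both with A or C there, a form added after seeing the data.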
